A study of Arabidopsis thaliana with 28 samples.

Results

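The IDD4 overexpressor (IDD4ox) was set against wild type (WT) in RNA-seq of whole 14-day-old Arabidopsis thaliana seedlings. IDD4ox carries pUBI10::IDD4:GFP in the Col-0 background, a GFP-tagged IDD4 driven by a ubiquitin promoter that is active in most tissues, as the labels write it, while the study's text also places the GFP before IDD4. WT was Col-0 without a transgene, so the presence of a transgene, the tag and the level of IDD4 cannot be told apart in this comparison. All seedlings grew on sugar-free Murashige and Skoog plates under long days, and the group labels name no treatment, although a protocol field shared by all samples of the series describes flg22. The study raised several overexpressor lines, of which its text names IDD4ox1 for the expression data while the labels name none. The same experiment held IDD4-AA and IDD4-DD, which carry RFP-tagged IDD4 under the same promoter with its phosphorylation sites replaced by alanine or by aspartic acid. Those lines share the WT of IDD4ox, so their values are set side by side and are no independent support.

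The table gives 1 pooled FPKM value (fragments mapped to a transcript, scaled to its length and to all mapped fragments) for each gene and group, although the labels list 2 samples of each and the study's text gives another number of replicates, so how many samples a column pools is not settled. No replicate error and no test could therefore be had, and the sequencing depth is unknown. Genes were compared where either group had at least 1 FPKM, which left 19016 of the 27371 genes of the table. A gene below 1 FPKM in only 1 of the groups was thus compared through the group where it was higher. A change is given as the difference of log2(FPKM + 1), IDD4ox minus WT, which understates the change of low genes. "Rose" and "fell" are used of genes at least 1.5-fold apart on FPKM + 1, a rule of size that measures no error. Seedlings were sampled whole, so fewer cells of a type and less RNA per cell cannot be told apart.

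IDD4 belongs to the INDETERMINATE DOMAIN family of plant C2H2 zinc finger transcription factors. Several members bind DNA together with GRAS-domain proteins, among them SCARECROW, SHORT-ROOT and the DELLA repressors of gibberellin signalling, and family members act in root patterning, gravitropism, flowering and metabolism. The maize member ID1, after which the binding motif is named, controls the transition to flowering. The core of that motif is AGACAA, or TTGTCT when it lies on the other strand of a gene.

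Stretches of 30 bases around the motif, from the start regions of 7 loci on the study's list of IDD4 ChIP targets, show what the motif looks like in place. Capitals mark the motif, and each stretch runs 5′ to 3′ along the strand of its gene in the RefSeq TAIR10.1 assembly. SAGT1 encodes a glucosyltransferase of salicylic acid, ERF2 an ethylene response factor and EXO70H7 an exocyst subunit. The product of DIP2 is annotated as a ubiquitin ligase. MYB59 encodes a MYB factor, SAUR15 a small auxin-induced protein and PIF3 a phytochrome-interacting factor.
SAGT1, chr2:18151963-18151992, plus strand: aaagcacatggtAGACAAaataatgaagcc
ERF2, chr5:19173072-19173101, minus strand: ggacaagttgagAGACAAaaccaaatcagc
EXO70H7, chr5:24066297-24066326, minus strand: ttccccaatgtcTTGTCTtatttgacaccg
DIP2, chr5:763541-763570, minus strand: tatagacgtgtgAGACAAgagctcacacgt
MYB59, chr5:24083704-24083733, minus strand: tgcaacacaaaaAGACAAaagaaaaggcag
SAUR15, chr4:18125954-18125983, plus strand: gtgatgtctttgAGACAAataagccccaat
PIF3, chr1:3075543-3075572, plus strand: atagataaagagAGACAAggttgctcaacc
The motif began 103 bases before the start of SAGT1 and 78 bases before that of DIP2. The FPKM of these genes in IDD4ox and WT are given with the ChIP targets.

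IDD4 itself stood at 197 FPKM in IDD4ox, against 9.23 FPKM in WT, which is 21.3-fold higher. IDD4-AA had 71.6 FPKM and IDD4-DD 198 FPKM, so IDD4ox and IDD4-DD lay close together and IDD4-AA below them. Where IDD4-AA differs from the other lines, its replaced sites and its lower level of IDD4 thus cannot be told apart. IDD4 and its neighbour and close paralog IDD5 can share reads, and IDD5 was at 20.8 FPKM in IDD4ox and 31.7 FPKM in WT, a change of -0.58 just inside the 1.5-fold line. Among the 13 family members compared, IDD7 (12.2 FPKM in IDD4ox, 7.37 in WT) and IDD11 (7.37 in IDD4ox, 4.38 in WT) also rose. The root patterning members JKD, MGP and NUC had changes of -0.03, 0.16 and -0.11. The GRAS genes and gibberellin genes moved little. Of 12 GRAS partners compared, RGL3, a DELLA gene, was the 1 that rose, with 2.12 FPKM in IDD4ox and 1 FPKM in WT, and none of 16 gibberellin genes passed 1.5-fold.

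In all, 749 genes (3.94% of those compared) rose in IDD4ox and 473 (2.49%) fell, 1222 (6.43%) in both directions together. The counts of each list below are to be read beside these shares. At least 2-fold apart were 163 genes (0.857%) that were higher and 140 (0.736%) that were lower. The median change was 0.069 and the quartiles were -0.088 and 0.227, with 5% of genes below -0.417 and 5% above 0.532. After scaling IDD4ox by the median of ratios (1.0416), 579 genes were higher and 563 lower at 1.5-fold, so the excess of rises over falls rested on the scale of the deposited values. Short genes passed the threshold most often. Of 149 genes under 500 bases, 31.5% rose and 25.5% fell, whereas of 2737 genes of 4000 bases or more, 0.621% rose and 0.329% fell. Against the same WT, IDD4-AA had 349 genes higher and 399 lower, and IDD4-DD had 597 higher and 469 lower.

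**Figure D1:**
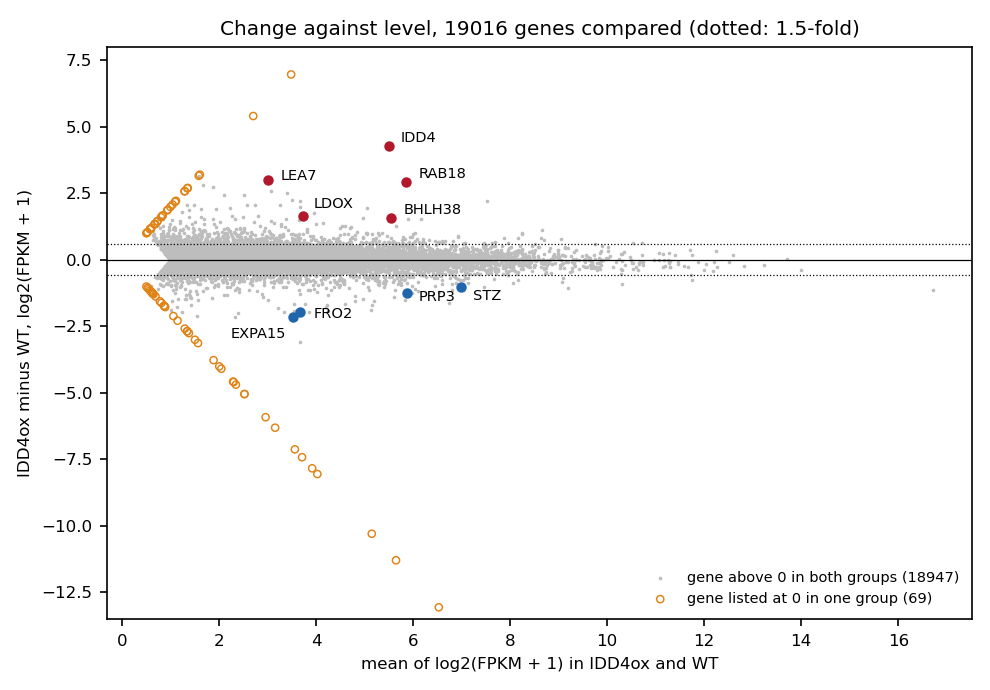
Change against level for the 19016 genes compared, with the mean of log2(FPKM + 1) in IDD4ox and WT on the x axis and IDD4ox minus WT on the y axis. Each point is a gene, open circles are genes listed at 0 in either group, dotted lines mark 1.5-fold, and most genes lie within them while IDD4 stands at 4.27 and RAB18 at 2.94.

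Genes of the abscisic acid and water deficit response were among the largest rises. RAB18, a dehydrin of the abscisic acid response, had 159 FPKM in IDD4ox and 19.9 FPKM in WT. RD29B, a classic abscisic acid reporter gene, had 8.97 FPKM in IDD4ox and 0.855 FPKM in WT. LEA7 (21.6 in IDD4ox, 1.85 in WT), LEA3 (12.3 in IDD4ox, 1.46 in WT) and AT3G02480 (19.8 in IDD4ox, 2.42 in WT), all genes for late embryogenesis abundant proteins, were among the 12 largest rises. So were HIS1-3, a linker histone induced by drought (24.3 in IDD4ox, 3.41 in WT), and LTP4, a lipid transfer protein (23.8 in IDD4ox, 4.24 in WT). Of 25 abscisic acid and water deficit genes compared, 12 rose and 1 fell, with a median of 0.45 beside 0.069 over all genes. Over all genes 3.94% rose and 2.49% fell.

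These 12 took in several steps of the response. P5CS1, for proline synthesis, was at 14.9 FPKM in IDD4ox and 8.47 FPKM in WT, and GOLS2, for raffinose-type sugars, at 5.28 FPKM in IDD4ox and 3.06 FPKM in WT. The transcription factor genes were HB-7 (41 FPKM in IDD4ox, 22.1 in WT), HB-12 (13.2 in IDD4ox, 4.42 in WT), RD26 (19.3 in IDD4ox, 10.6 in WT) and NAC019 (3.35 in IDD4ox, 0.689 in WT). The phosphatases HAI1, HAI2 and HAB1, which dampen abscisic acid signalling, were in the list and rose as well, with changes of 0.96, 1.24 and 0.62. The member that fell, CYP707A3, encodes an enzyme that breaks abscisic acid down and had 8.53 FPKM in IDD4ox and 16.8 FPKM in WT.

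RAB18 was at 37.6 FPKM in IDD4-AA and 105 FPKM in IDD4-DD, and RD29B at 0.969 FPKM in IDD4-AA and 5.47 FPKM in IDD4-DD. For both genes IDD4ox was the highest group and WT the lowest, with IDD4-AA nearer to WT than to IDD4ox. The list's median against the shared WT was 0.10 in IDD4-AA and 0.34 in IDD4-DD. Levels of these genes also differed between the WT of the 2 experiments of the series, whose tables were normalized separately. LEA3 was at 126 FPKM in the untreated WT of the other experiment, above the 12.3 FPKM of IDD4ox, whereas RAB18 was at 33.3 FPKM there. Of 59 genes annotated as late embryogenesis abundant or dehydrin products, a group added after the values were seen, 7 rose and 3 fell with a median of 0.09, so the large rises were those of a few members.

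Anthocyanin genes split by the step they serve. LDOX and DFR, the late enzymes that lead to anthocyanidins, had 22.5 and 12.8 FPKM in IDD4ox, against 6.56 and 4.05 FPKM in WT. UF3GT, a glycosyltransferase, had 10.2 FPKM in IDD4ox and 3.59 FPKM in WT, and GSTF12, which carries anthocyanins to the vacuole, had 27.7 FPKM in IDD4ox and 9.94 FPKM in WT. With the acyltransferase 5MAT and AT4G14090 they made 6 genes that rose among 22 compared, and none fell. The other 16 lay between -0.27 and 0.47, with PAL4 at the low end and F3'H at the high end, and the list's median was 0.10. CHS, the entry enzyme of the flavonoid pathway, had 424 FPKM in IDD4ox and 462 FPKM in WT, and PAP1, a MYB activator of the late genes, had 1.7 FPKM in IDD4ox and 1.21 FPKM in WT. LDOX was at 10.9 FPKM in IDD4-AA and 26.5 FPKM in IDD4-DD, and in the other 5 rising genes too IDD4ox and IDD4-DD lay close together with IDD4-AA below them. For 5MAT the change against WT was -0.01 in IDD4-AA, and for UF3GT it was 0.75 in IDD4-AA and 1.29 in IDD4ox.

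**Figure D2:**
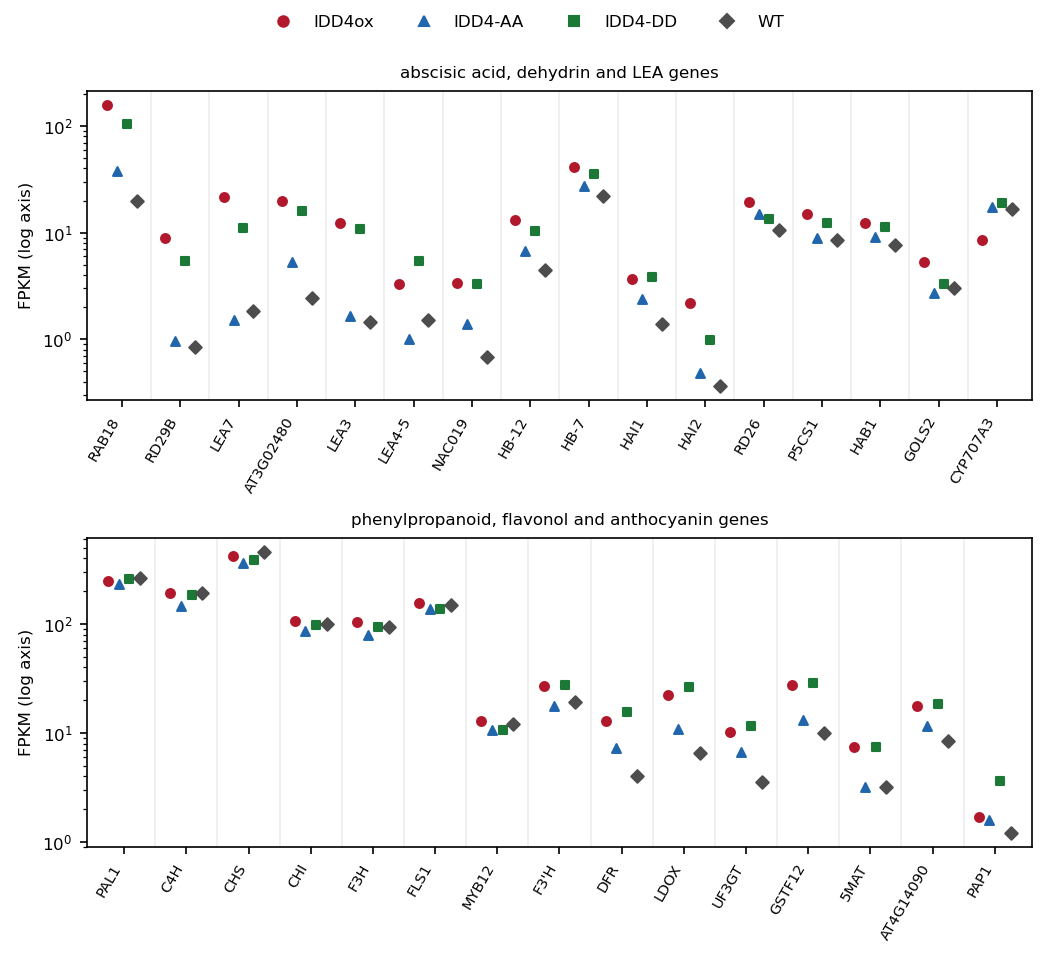
FPKM on a log axis in the IDD4ox, IDD4-AA, IDD4-DD and WT groups, in that order, for abscisic acid and water deficit genes (upper panel) and for genes from phenylpropanoids to anthocyanins (lower panel), with 1 pooled value per gene and group and no error. RAB18 has 159 FPKM in IDD4ox and 19.9 FPKM in WT, and LDOX with 22.5 FPKM in IDD4ox and 6.56 FPKM in WT.

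Genes that plants switch on in the dark or when sugar runs low were higher as a list. Of 22 compared, 6 rose and none fell, and 20 were above 0, with a median of 0.45. The rising members were DIN1 (10.6 FPKM in IDD4ox, 4.07 in WT), ASN1, an asparagine synthetase (7.07 in IDD4ox, 2.56 in WT), BCAT2 and MCCA, which break down branched-chain amino acids, the glucosidase gene DIN2, and DRM1. In this list IDD4-AA and IDD4-DD had medians of 0.42 and 0.46 against the same WT, close to that of IDD4ox. The summed FPKM was 901 in IDD4ox, 1014 in IDD4-AA and 951 in IDD4-DD, against 757 in WT.

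Clock and flowering genes lay on the same side. CCA1, a morning gene at the core of the clock, had 2.9 FPKM in IDD4ox and 0.697 FPKM in WT, and its relatives RVE1 and RVE8 had 3.44 and 1.37 FPKM in IDD4ox and 1.19 and 0.63 FPKM in WT. RVE1 rose with CCA1, PRR9, COL2 and CDF1, while RVE8 stayed just under the threshold at 0.54. Of 24 clock genes compared 5 rose and none fell, beside 3.94% and 2.49% of all genes, with a median of 0.25. CCA1 was at 0.838 FPKM in IDD4-AA and 2.08 FPKM in IDD4-DD. The hour of harvest is not given in the sources used here. Of the 9 meristem and flowering genes that passed the level filter, SOC1 (10.8 FPKM in IDD4ox, 6 in WT), SPL5 (2.47 in IDD4ox, 0.586 in WT) and MAF5 (2.69 in IDD4ox, 0.429 in WT) rose. CCA1, RVE8, SPL5 and MAF5 were below 1 FPKM in WT and passed the filter through IDD4ox, where they were higher. The meristem and flowering median was 0.34, and 0.23 over the 5 members of at least 5 FPKM. SOC1 and SPL5 promote flowering, whereas MAF5 belongs to the clade of the floral repressor FLC. SPL3 and SPL4, relatives of SPL5, had changes of 0.58 and 0.34 and did not pass.

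Iron genes moved in both directions. The group Ib bHLH factors of iron deficiency all rose: BHLH38 had 79.5 FPKM in IDD4ox and 26.1 FPKM in WT, BHLH39 had 45.8 in IDD4ox and 22 in WT, BHLH100 had 69.6 in IDD4ox and 41 in WT, and BHLH101 had 15.2 in IDD4ox and 7.22 in WT. AT1G47400, in the list with them, had 167 FPKM in IDD4ox and 88.1 FPKM in WT, and AT1G47395, one of the 12 largest rises, had 390 FPKM in IDD4ox and 84.3 FPKM in WT. A pair of uptake genes fell. FRO2, the root ferric reductase, had 5.41 FPKM in IDD4ox and 23.8 FPKM in WT, and IRT1, the iron transporter, had 74.6 FPKM in IDD4ox and 165 FPKM in WT. FRU, the factor that works with the Ib factors on these uptake genes, was at 13.3 FPKM in IDD4ox and 19.7 FPKM in WT, within 1.5-fold. The ferritin genes FER1 and FER4, for iron storage, rose with changes of 0.77 and 0.83. MYB72 rose at low level, with 1.09 FPKM in IDD4ox and 0.372 FPKM in WT, and passed the level filter through IDD4ox. In all, 8 of 25 iron genes compared rose and 2 fell, beside 3.94% and 2.49% of all genes.

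The groups did not keep 1 order across the iron genes. BHLH38 was at 5.77 FPKM in IDD4-AA and 78.2 FPKM in IDD4-DD, so IDD4-AA lay below WT and IDD4-DD beside IDD4ox. FRO2 was at 3.41 FPKM in IDD4-AA and 6.9 FPKM in IDD4-DD, so all 3 transgenic lines lay below the WT they share. The median of the list was 0.22 in IDD4ox, -0.92 in IDD4-AA and 0.20 in IDD4-DD. Over the 23 members of at least 5 FPKM the IDD4ox median was 0.03, below the 0.069 of all genes.

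The falls included genes of the root hair and its wall. Of 18 root hair genes compared, 6 fell and none rose, beside 2.49% and 3.94% of all genes. Of the 18, 17 were below 0, and the median was -0.47, the lowest of all 41 lists fixed for this comparison. PRP3, a proline-rich wall protein of root hairs, had 37 FPKM in IDD4ox and 88.3 FPKM in WT. PRP1 (7.1 in IDD4ox, 18.8 in WT), AGP3 (44.5 in IDD4ox, 102 in WT) and LRX1, a leucine-rich extensin of the hair wall (7.4 in IDD4ox, 17.6 in WT), fell in like measure, followed by RHS10 and COBL9. RSL4, a bHLH factor of hair growth, was at 1.59 FPKM in IDD4ox and 2.61 FPKM in WT, a change of -0.48. The summed FPKM of the list was 207 in IDD4ox, 225 in IDD4-AA and 187 in IDD4-DD, against 373 in WT, so WT was the group that stood apart. In the untreated WT of the other experiment, normalized separately, PRP3, PRP1, AGP3 and LRX1 had 6.83, 1.28, 11 and 1.79 FPKM, below IDD4ox.

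Extensins, hydroxyproline-rich proteins that are cross-linked in the wall, were lower too. In this group, added after the values were seen, 18 of 41 genes compared fell and 1 rose, with a median of -0.49. EXT3 had 920 FPKM in IDD4ox and 1746 FPKM in WT, EXT13 had 39.8 in IDD4ox and 95 in WT, and EXT10 had 20.5 in IDD4ox and 61.1 in WT. Among 172 groups of at least 10 genes with the same product name, the proline-rich extensin-like family had the lowest median, -1.58, and all 10 of its genes fell. These genes are repeats of a short peptide and share near-identical stretches, so their reads may be split between copies with uncertainty. AT4G08400 was at 10.6 FPKM in IDD4-AA and 9.83 FPKM in IDD4-DD, with 8.76 FPKM in IDD4ox and 35.9 FPKM in WT. In the other experiment, normalized separately, AT4G08400 was at 1.99 FPKM in idd4, a line with a T-DNA insertion in IDD4, and at 1.7 FPKM in its untreated WT, so both lay below IDD4ox.

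**Figure D3:**
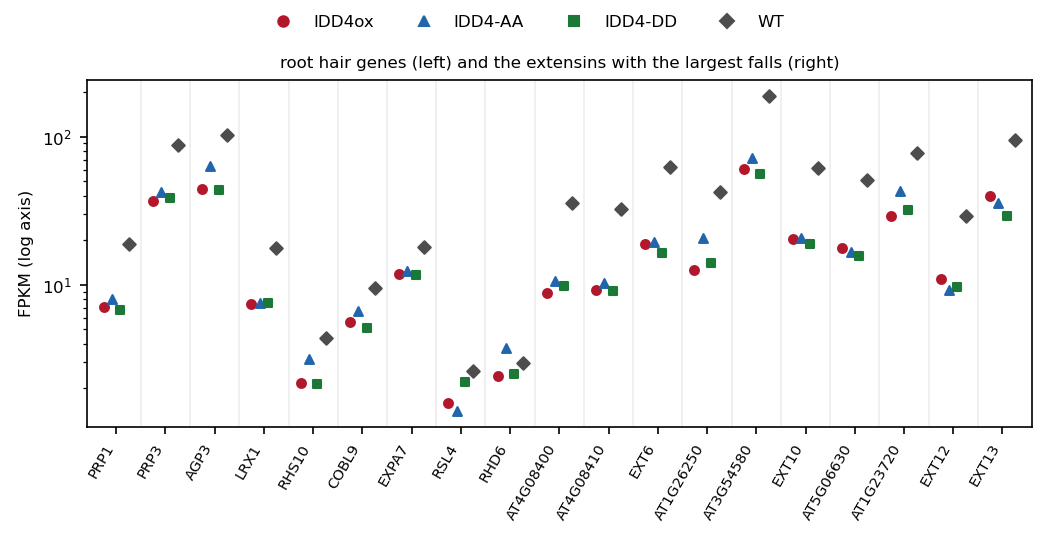
FPKM on a log axis in IDD4ox, IDD4-AA, IDD4-DD and WT, in that order, for root hair genes and extensins, with 1 pooled value per gene and group and no error. PRP3 had 37, 42.6 and 38.7 FPKM in the 3 transgenic lines and 88.3 FPKM in WT, and WT lies above the 3 lines for every gene drawn except RHD6, where IDD4-AA is the highest.

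Other root markers moved less. Of 18 genes of the root and its Casparian strip, the endodermal barrier, 2 fell: CASP2 (13 FPKM in IDD4ox, 21.4 in WT) and XTH17 (15.1 in IDD4ox, 30.2 in WT). The list's summed FPKM was 622 in IDD4ox and 730 in WT, and its median -0.05. Trichome and guard cell genes summed to 771 FPKM in IDD4ox and 707 FPKM in WT, with none of 19 past 1.5-fold. Of 20 seed and oil body genes, 1 reached 1 FPKM, and the others stayed below that level in IDD4ox and WT. Whether the share of root tissue differed between the groups was not tested.

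Among wall-loosening genes, EXPA15 gave one of the largest falls and was low in IDD4ox alone, with 4.43 FPKM there, 23.3 FPKM in IDD4-AA, 25 FPKM in IDD4-DD and 23.3 FPKM in WT. EXPA8 (37.6 FPKM in IDD4ox, 74.2 in WT) and XTH18 (25.4 in IDD4ox, 39.4 in WT) also fell. XTH24 and XTH16, which encode wall-modifying enzymes too, rose with changes of 0.85 and 0.61. The median over 27 cell wall growth genes was -0.06.

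Auxin-induced SAUR genes, many of which promote cell expansion, were mostly above WT. SAUR50 had 53.3 FPKM in IDD4ox and 27.6 FPKM in WT, SAUR22 had 5.32 FPKM in IDD4ox and 2.18 FPKM in WT, and SAUR14 had 49.7 FPKM in IDD4ox and 32.3 FPKM in WT. SAUR34 went the other way, with 0.262 FPKM in IDD4ox and 1.44 FPKM in WT. Of the 59 genes annotated as SAUR-like, 47 were above 0, 16 rose and 2 fell, with a median of 0.31, the second highest of the 172 product groups, and SAUR genes are short, as were many genes past the threshold. Over the 43 auxin response genes compared, 5 rose and 1 fell, and the median was 0.13.

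Defense genes were lower in IDD4ox mainly among early response genes. Of 24 early flg22 genes compared (flg22 is a peptide of bacterial flagellin that triggers immunity), 7 fell and none rose. Over all genes 2.49% fell and 3.94% rose. The list's median was -0.39 against -0.13 in IDD4-AA and -0.11 in IDD4-DD. NHL10 had 3.72 FPKM in IDD4ox and 10.6 FPKM in WT, STZ, a zinc finger repressor, had 87.4 FPKM in IDD4ox and 180 FPKM in WT, and AP2C1, a phosphatase of MAP kinases, had 14.8 FPKM in IDD4ox and 28.4 FPKM in WT. IDD4-AA and IDD4-DD lay between IDD4ox and WT for all 3, with 134 and 135 FPKM for STZ. FRK1, a flg22 marker gene, was at 0.121 FPKM in IDD4ox and 0.221 FPKM in WT. In the other experiment FRK1 had 4.38 FPKM in WT after 1 h of 1 µM flg22 and 0.0543 FPKM in untreated WT. STZ had 151 and 6.31 FPKM in those groups, ERF104 71.9 and 20 FPKM, and NHL10 40.8 and 1.95 FPKM. The WT of IDD4ox was thus near the untreated WT for FRK1 and near the treated WT for STZ. For ERF104 it lay above both, at 278 FPKM with 209 FPKM in IDD4ox, and for NHL10 it lay between them. These values come from tables that were normalized separately.

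Members of stress pathways beside flg22 gave smaller sets. CBF1 and CBF2, the cold response factors, had 5.07 and 14.2 FPKM in IDD4ox and 11.2 and 22.9 FPKM in WT, while their targets COR15A and COR15B had changes of 0.51 and 0.43. In the ethylene list 4 of 25 genes fell, beside 2.49% of all genes. They were ERF5, ERF2, ERF13 and ORA59, the last of which joins ethylene and jasmonate signals. ERF98 rose, with 1.55 FPKM in IDD4ox and listed at 0 in WT. In the jasmonate list MYC2, its master factor, had 43.7 FPKM in IDD4ox and 67.9 FPKM in WT, and LOX4 and CYP94B3 fell with it, whereas VSP2 (92.4 in IDD4ox, 45 in WT) and the defensin gene PDF1.3 (19.9 in IDD4ox, 6.44 in WT) rose. ZAT7, a zinc finger gene of stress responses, was among the 12 largest falls, with 5.02 FPKM in IDD4ox and 21.6 FPKM in WT.

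The salicylic acid list was mixed, with 2 of 27 genes higher and 3 lower, beside 3.94% and 2.49% of all genes, and a median of 0.04. The pathogenesis-related markers went opposite ways. PR5 fell, with 3.57 FPKM in IDD4ox, 6.57 in IDD4-AA, 4.27 in IDD4-DD and 9.36 in WT, while PR1 had 1.79 FPKM in IDD4ox, 0.321 in IDD4-AA, 11.1 in IDD4-DD and 0.169 in WT. WRKY38 fell at low level, with 0.263 FPKM in IDD4ox and 1.35 FPKM in WT. WRKY60 (6.15 FPKM in IDD4ox, 2.61 in WT) and WRKY75 (6.17 in IDD4ox, 3.32 in WT) rose, and WRKY40 (10.7 in IDD4ox, 18.7 in WT) and WRKY54 (6.74 in IDD4ox, 11.5 in WT) fell. Over 24 WRKY factors the median was -0.18, with 2 that rose and 3 that fell. CYP71A12, an enzyme of the indole defense branch, had 0.612 FPKM in IDD4ox and 3.4 FPKM in WT, whereas its close relative CYP71A13, which makes the phytoalexin camalexin, had 4.59 FPKM in IDD4ox and 2.73 FPKM in WT, a change of 0.58 under the threshold.

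**Figure D4:**
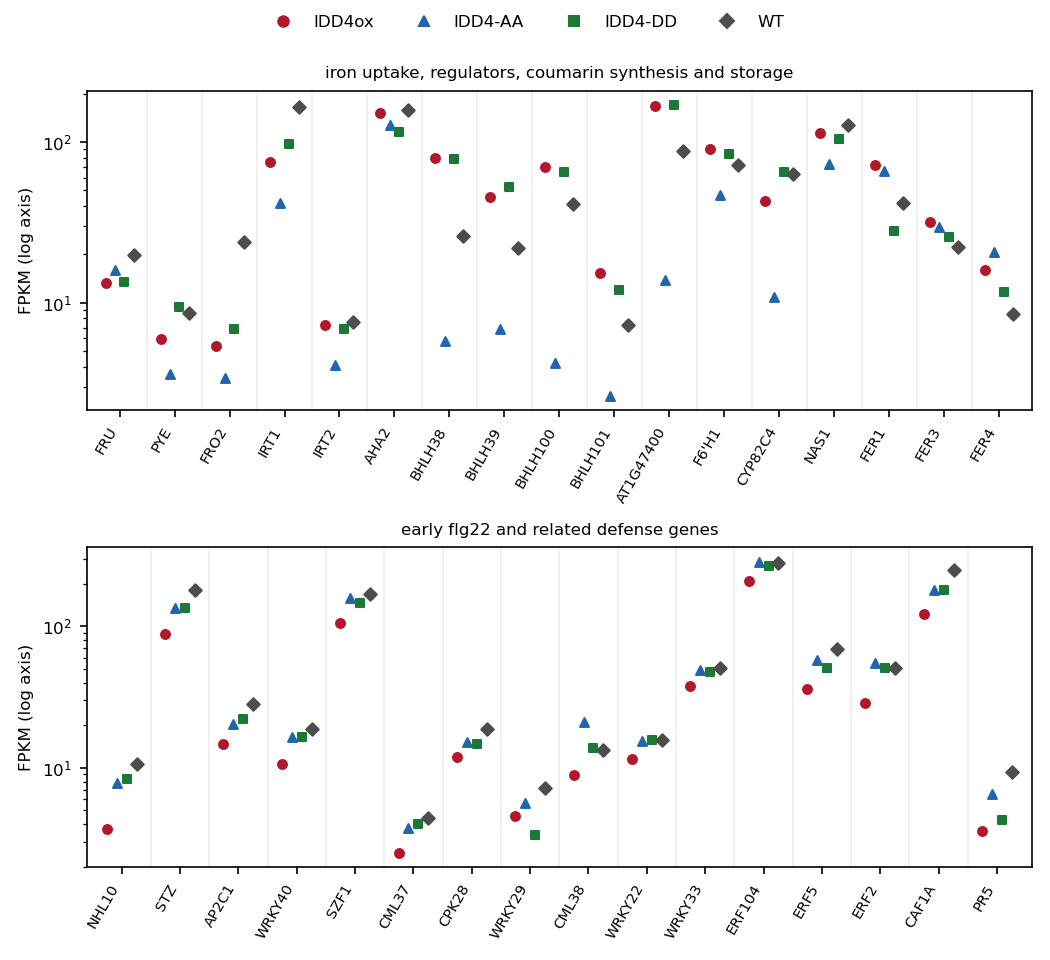
FPKM on a log axis in IDD4ox, IDD4-AA, IDD4-DD and WT, in that order, for iron genes and defense genes, with 1 pooled value per gene and group and no error. BHLH38 is high in IDD4ox (79.5 FPKM) and IDD4-DD (78.2 FPKM), FRO2 is low in all 3 transgenic lines, and STZ has 87.4 FPKM in IDD4ox and 180 FPKM in WT.

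Photosynthesis genes showed small shifts with 1 direction in the Calvin cycle. All 19 Calvin cycle genes compared were below 0, with a median of -0.28, but only RBCS1B, a small subunit of Rubisco, passed 1.5-fold, with 2650 FPKM in IDD4ox and 4516 FPKM in WT. RBCS1A was at 14344 FPKM in IDD4ox and 18810 FPKM in WT, and RCA, Rubisco activase, at 1385 FPKM in IDD4ox and 1804 FPKM in WT. Their sum was 41296 FPKM in IDD4ox and 52361 FPKM in WT. Of 38 nuclear photosystem and antenna genes 26 were below 0, LHCB4.3 fell (42.6 FPKM in IDD4ox, 78.4 in WT), and the median was -0.09. Chlorophyll synthesis and its regulators included 3 genes that rose: GLK2, a factor of chloroplast development (40.3 in IDD4ox, 22.6 in WT), HEMA1, at the head of the pathway (93.7 in IDD4ox, 56.5 in WT), and CAO, for chlorophyll b (27.3 in IDD4ox, 16.2 in WT). The list's median was 0.03 and turned below 0 after median of ratios scaling, while that of the Calvin cycle stayed below 0.

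Nutrient genes apart from iron held a few large changes. NRT2.1, a root nitrate transporter, had 6.67 FPKM in IDD4ox and 23.4 FPKM in WT, with 17.5 FPKM in IDD4-AA and 5.17 FPKM in IDD4-DD. NRT1.8, which takes nitrate out of the xylem, rose with 1.62 FPKM in IDD4ox and 0.397 FPKM in WT. LSU1, a gene of sulfur deficiency, had 77.4 FPKM in IDD4ox and 31.1 FPKM in WT. The phosphate starvation genes SPX1, PAP17 and PS2 rose with changes between 0.64 and 0.69, and none of the 17 compared fell. Among heat shock genes 4 of 17 rose and none fell, beside 3.94% and 2.49% of all genes. The small heat shock protein gene HSP17.6A had 4.15 FPKM in IDD4ox and 0.239 FPKM in WT, and the heat shock factor gene HSFA7A had 12.8 FPKM in IDD4ox and 6.13 FPKM in WT.

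**Figure D5:**
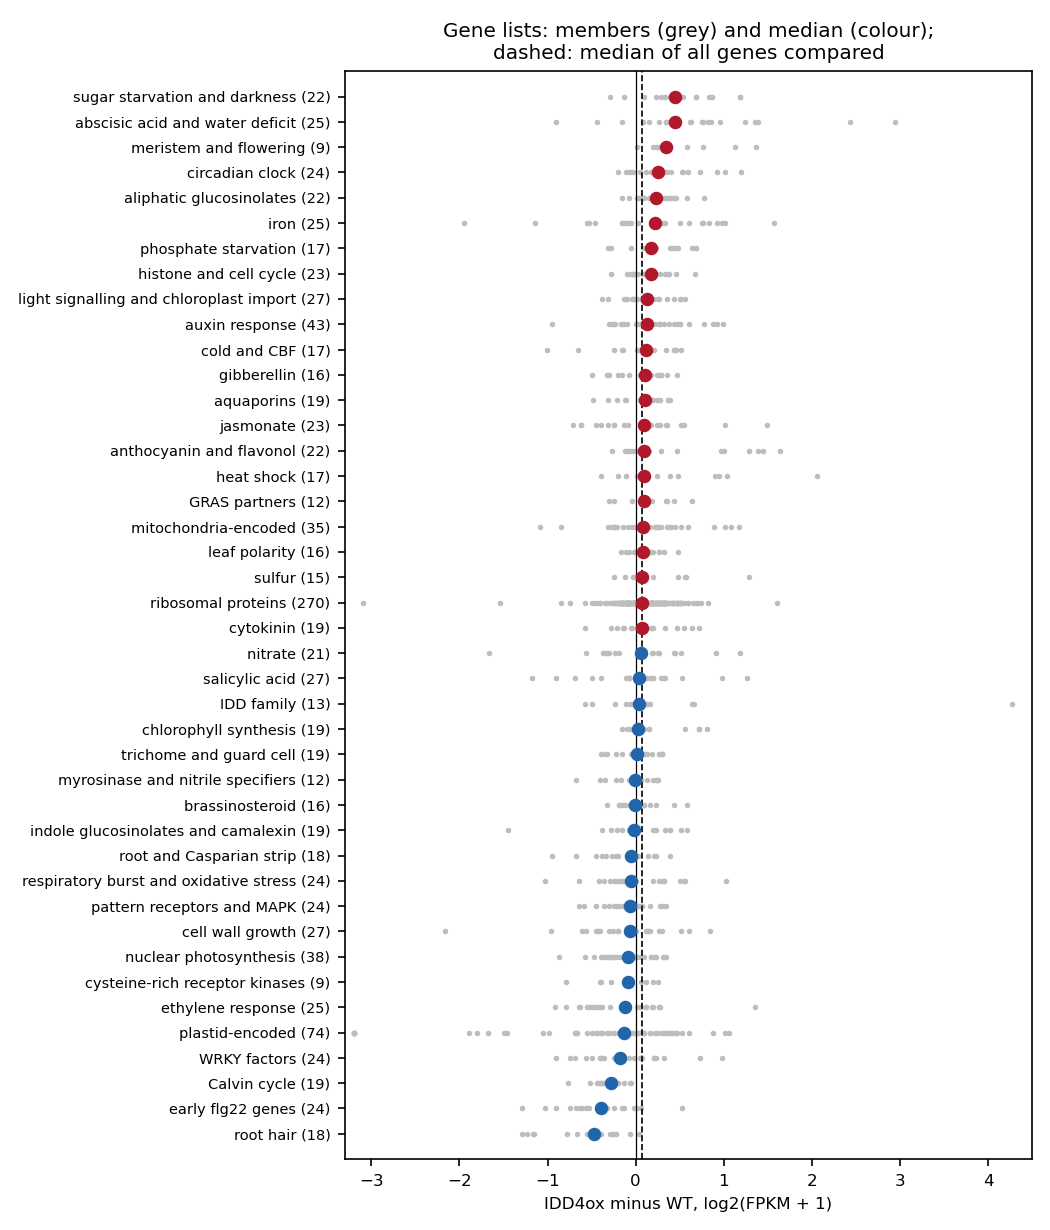
Change in IDD4ox against WT, as the difference of log2(FPKM + 1), for the members (grey) of the lists and their medians (red above and blue below the median of all genes, the dashed line at 0.069), with the number of genes compared in brackets. Sugar starvation and abscisic acid lists stand highest at 0.45 and the root hair list lowest at -0.47, and plastid genes beyond -3.2 are drawn at that edge.

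Other lists had few members or none past the threshold, beside 3.94% of all genes that rose and 2.49% that fell. The counts are small, and some exceed those shares. For brassinosteroid genes, light signalling and chloroplast import, leaf polarity, and aquaporins, none of 16, 27, 16 and 19 genes passed 1.5-fold. Cytokinin had 2 of 19 higher (CRF5 and LOG1), histone and cell cycle 1 of 23 (CYCD3;3), aliphatic glucosinolates 1 of 22 (MYB29, a regulator of the pathway, with 14 FPKM in IDD4ox and 7.77 in WT). Myrosinase and nitrile specifier genes had 1 of 12 lower (ESM1), pattern receptors and MAP kinases 2 of 24 lower (LYK5 and SOBIR1), and cysteine-rich receptor kinases 1 of 9 lower (CRK4). In the list of the respiratory burst, GSTF6 rose with 39.9 FPKM in IDD4ox and 19.1 FPKM in WT, and PRX34, a peroxidase of the apoplastic burst, fell with 92.1 FPKM in IDD4ox and 144 FPKM in WT. Of the genes that the study names for the overexpressor or for IDD4 binding, 38 were compared, some of which it chose from these samples, so they are not independent evidence: 3 rose, 8 fell, and the median was -0.02.

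The labels give the plants of the study's IDD4 ChIP the same construct as IDD4ox, and 725 of the 837 loci were among the genes compared. Their median change was 0.067, beside 0.069 for all genes. Of these targets 35 rose (4.83%, beside 3.94% of all genes) and 23 fell (3.17%, beside 2.49%), so 4.67% of the genes that rose and 4.86% of those that fell were targets, beside 3.81% of all genes compared. These shares lay near those of all genes. At 2-fold, 2 targets were higher (0.276%, beside 0.857%) and 5 lower (0.69%, beside 0.736%), so that 1.23% of the higher and 3.57% of the lower genes were targets.

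Among targets of at least 5 FPKM in either group, DIP2 rose most, with 24.3 FPKM in IDD4ox, 7.39 in IDD4-AA, 20.3 in IDD4-DD and 5.45 in WT. MYB59 (29.8 FPKM in IDD4ox, 15.3 in WT), SAUR50, AT1G53890 and HB-7 followed. The target of that level that fell most was the extensin gene AT4G08410, with 9.3 FPKM in IDD4ox and 32.5 FPKM in WT. It came before STZ, CAF1A, a deadenylase (122 in IDD4ox, 248 in WT), AP2C1 and HSPRO2 (194 in IDD4ox, 359 in WT). Of the genes whose motif stretch is printed, SAUR15 rose (7.43 in IDD4ox, 3.92 in WT), ERF2 (28.7 in IDD4ox, 50.5 in WT) and EXO70H7 (26.5 in IDD4ox, 41.7 in WT) fell, and PIF3 (3.64 in IDD4ox, 2.27 in WT) did not pass on the FPKM + 1 scale. SAGT1 had 56.5 FPKM in IDD4ox and 59.8 FPKM in WT, 1.06-fold apart.

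The ID1 core AGACAA was searched on both strands of the 300 bases from 250 before to 50 after each gene's start. It was in 24.1% of 738 genes that rose and 25.6% of 450 that fell, beside 23.2% of 18859 windows over all genes compared. Among 724 ChIP target loci the share was 27.2%. A match describes these letters and no binding site.

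For some of the largest changes, the values of the other groups showed which column stood apart. AT4G25670 had 7.93 FPKM in IDD4ox, 9.57 in IDD4-AA and 11.5 in IDD4-DD against 0.00604 FPKM in WT, but 8.58 FPKM in the untreated WT of the other experiment, so the low value was that of the shared WT column. AT3G08520, a ribosomal protein L41 gene with near-identical copies, had 3.33 FPKM in IDD4ox and 36 FPKM in WT, with 24.7 in IDD4-AA, 18.4 in IDD4-DD and 8.62 FPKM in the untreated WT of the other experiment. Over 270 ribosomal protein genes compared 8 rose and 4 fell, with a median of 0.07. AT4G33720, which belongs to the PR1-type secretory protein family, had 6.33 FPKM in IDD4ox and 27.6 FPKM in WT, with 28.2 and 22.2 FPKM in IDD4-AA and IDD4-DD. Among the groups of this experiment it was thus low in IDD4ox alone, as EXPA15 was. In the untreated WT of the other experiment, however, AT4G33720 was at 3.38 FPKM, below IDD4ox, and EXPA15 at 25.1 FPKM. AT2G05540, a glycine-rich protein gene, had 26.4 FPKM in IDD4ox and 4.89 FPKM in WT, and 288 FPKM in the untreated WT of the other experiment.

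Genes listed at 0 in 1 group are kept apart, since such a 0 can be a failed estimate. There were 40 genes at 0 in IDD4ox with at least 1 FPKM in WT, and 29 the other way. The extremes were AT1G65541, listed at 0 in IDD4ox and at 8520 FPKM in WT, and AT5G14560, at 124 FPKM in IDD4ox and listed at 0 in WT. Both were at 0 in IDD4-AA and IDD4-DD, so each had a value in 1 of the 4 groups. Plastid-encoded genes held 7 of these zeros in IDD4ox, with ATCG00690 at 2505 FPKM in WT and 0 in all 3 lines. Plastid transcripts made up 0.108% of the summed FPKM in IDD4ox, 0.0959% in IDD4-AA, 0.342% in IDD4-DD and 0.637% in WT. They summed to 773 FPKM in IDD4ox and 5241 FPKM in WT. Of the WT sum, ATCG00690 gave 2505 FPKM and ATCG00220 1253 FPKM, both listed at 0 in IDD4ox. Much of the gap in share thus rested on such zeros. Of 74 plastid genes compared 18 fell, these zeros among them, and 4 rose. The part of plastid transcripts in the nuclear changes was not tested. AT2G01021 took 10.1% of the summed FPKM in IDD4ox and 19.4% in WT.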

How the data were processed

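RNA was sequenced from whole seedlings, and the authors deposited FPKM values made with Trimmomatic, TopHat and Cufflinks on TAIR10, as 1 pooled column per group. FPKM divides by transcript length, so levels can be compared between genes, but a pooled value carries neither replicate spread nor depth, and Cufflinks can list a failed estimate as 0. The gene identifiers of the table were out of step with their values in 21642 rows, so the identifiers were sorted and put beside the values in row order. Read that way, IDD4 had 197 FPKM in IDD4ox and 9.23 FPKM in WT, whereas as given it had 20.8 and 31.7 FPKM.

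Changes were differences of log2(FPKM + 1) over genes that reached 1 FPKM in IDD4ox or WT, computed with Python 3.11.15 and pandas 2.3.3. The arithmetic was tested on simulated data. No test was run, since each group has 1 value. Named genes were IDD4, the 12 largest rises and 12 largest falls among nuclear genes of at least 5 FPKM in either group and above 0 in both, up to 4 genes listed at 0 each way, up to 4 members of each list with at least 5 FPKM and the largest changes either way, the 5 largest rises and 5 largest falls among ChIP targets of that level, all IDD genes and the genes the study names for the overexpressor or for IDD4 binding. Others, such as members given in passing, were chosen after their values were seen. The members and the lists were chosen with earlier results of these data known. Names and start regions came from RefSeq TAIR10.1, where 26703 of 27371 identifiers had a name. The study's target list was used for its loci alone.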

Additional observations from a re-analysis of the deposited data

How the results depend on the processing

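The counts depended on the pseudocount and on low and short genes. Genes at least 2-fold higher numbered 163, and 369 with a pseudocount of 0.1 FPKM, 43 with 5 FPKM, 89 with genes of at least 5 FPKM alone and 69 with genes of at least 1000 bases, a choice made after seeing the data. Genes at least 2-fold lower numbered 140, and 241, 58, 92 and 57 under the same 4 settings. At 1.5-fold, 749 higher genes became 1246, 218, 442 and 486, and 473 lower genes became 751, 201, 311 and 310. The change of IDD4 was 4.27, and 4.4 and 3.83 with pseudocounts of 0.1 and 5. The other pseudocounts could not turn the direction of the 119 named genes past 1.5-fold, and the 2 scalings were too small to. That none turned is therefore no support. Of these genes, 89 stayed past 1.5-fold with a pseudocount of 5 and 115 after median of ratios scaling. Among named genes within 1.5-fold, IDD12 and PHB lay just above 0 and turned to just below it under that scaling. That scaling (log2 0.059) moved the medians of the salicylic acid, chlorophyll synthesis, nitrate, trichome and guard cell, and seed lists, all at or under 0.06, to or below 0. No paired analysis was possible because each group has 1 pooled column, and for the same reason no replicate could be left out.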

Other observations

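The WT columns of the 2 experiments differed more from each other than IDD4ox did from its own WT. Of 19027 genes with at least 1 FPKM in either, 4267 were at least 1.5-fold higher in the WT of the IDD4ox experiment than in the untreated WT of the other, and 2775 were lower, across tables that were normalized separately.

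In untreated idd4 against its own WT, a comparison that shares no sample with IDD4ox against WT, the lists that stood out in IDD4ox had other medians. Root hair genes had a median of 0.04 in idd4, abscisic acid genes -0.06, sugar starvation genes -0.18, early flg22 genes 0.16 and extensins 0.03. The median over all genes was not computed for idd4, so its list medians have no such background to be read beside. Single genes that rose in IDD4ox went both ways in idd4. LEA7, RD29B and AT3G02480 had changes of 1.4, 1.24 and 1.05 there, while RAB18, HB-12 and LEA3 had -0.02, -0.21 and -0.82. The anthocyanin list had a median of -0.13 in idd4. Its members LDOX, DFR, UF3GT and GSTF12 had 0.58, 1.04, 0.65 and 0.8, above WT as in IDD4ox. The Calvin cycle genes had a median of -0.35 in idd4, so they were below WT in the mutant as well as in the overexpressor. IDD4 itself was listed at 23 FPKM in untreated idd4 and 14.5 FPKM in untreated WT, and the table does not say which part of the transcript these fragments come from.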
